A study of Mus musculus with 12 samples.

Results

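Levels of 8 mouse genes that set and relay the phosphorylation of the translation factor eIF2-alpha were followed in fibroblasts with and without the acetyltransferases CBP and p300. The 8 genes were taken by symbol from the 12637 genes of the deposited table, and each symbol matched 1 gene. They are the kinase genes Eif2ak1, Eif2ak2, Eif2ak3 and Eif2ak4, the substrate gene Eif2s1, the phosphatase subunit genes Ppp1r15a and Ppp1r15b, and the mitochondrial protease gene Oma1. The question put to them was whether the inputs to the transcription factor ATF4 differed with genotype.

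Phosphorylation of eIF2-alpha lowers general protein synthesis while it raises translation of a few messages, ATF4 among them, and ATF4 then turns on genes of amino acid supply and stress. HRI (Eif2ak1) senses heme loss and mitochondrial stress, PKR (Eif2ak2) double-stranded RNA, PERK (Eif2ak3) misfolded protein in the endoplasmic reticulum, and GCN2 (Eif2ak4) amino acid shortage. GADD34 (Ppp1r15a), itself a product of the stress response, and CReP (Ppp1r15b), made in unstressed cells, bring protein phosphatase 1 to eIF2-alpha. OMA1 is a protease of the inner mitochondrial membrane that, in human cells, cleaves DELE1, which then activates HRI.

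The cells were mouse embryonic fibroblasts (MEFs), cultured connective tissue cells of the embryo. Wild-type cells (WT) were compared with CBP/p300 knockout cells (KO), which were immortalized MEFs with floxed alleles, Crebbp fl/fl and Ep300 fl/fl, and a stable Cre-ERT2, a recombinase switched on by 4-OHT. Cells of each genotype had DMSO or doxycycline (Dox) at 30 µg/ml for 24 hours, in DMEM with 10% FBS and no other antibiotic. Doxycycline is an antibiotic that, besides bacterial ribosomes, inhibits those of mitochondria. The 4 groups, WT DMSO, KO DMSO, WT Dox and KO Dox, had 3 libraries each of polyA-enriched RNA. The sources used here do not say whether WT cells had 4-OHT or whether the KO was 1 line, so genotype, line and treatment history cannot be told apart.

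Between 44476039 and 52173143 reads per library were counted in genes, and the 8 genes had 463 to 8191 reads each. Values below are CPM, gene counts relative to library size, scaled between libraries by the trimmed mean of M-values (TMM). Nothing in the labels ties the replicates to separate cultures, so the p-values rest on a spread between libraries that could be technical alone. Unmapped reads were 7.63% in KO DMSO 1 and 6.65% in KO DMSO 2, against 1.85 to 2.09% elsewhere. Ep300 stood at 192 to 200.4 CPM in WT DMSO, 120.0 to 128 in KO DMSO, 178 to 196 in WT Dox and, in KO Dox, 111 to 115. Crebbp changed by -0.16 and -0.15 on the log2 scale, and counts over a whole gene do not check the deletion of exons. Of 10 fibroblast markers 9 were measured, and their summed CPM were 7993 to 8051 in WT DMSO and 8314 to 8403 in WT Dox, but in the KO 1781 to 1867 with DMSO and 2310 to 2341 with doxycycline. Col3a1, a matrix collagen, had 823 CPM in WT DMSO and 1.82 in KO DMSO, and 2 fibroblast markers lay under 1 CPM in every KO library. Macrophage markers, 4 of 6 measured, summed to 32.2 to 33.7 CPM in WT DMSO, 38.2 to 40.5 in KO DMSO, 22.5 to 23.9 in WT Dox and 34.4 to 37.0 in KO Dox. The sums in WT DMSO and KO DMSO were 54.7 to 57.0 and 22.6 to 23.3 for 3 of 4 neural markers. They were 6.74 to 7.48 and 1.36 to 1.71 for 1 of 4 muscle markers, and 42.6 to 44.8 and 0.354 to 0.429 for 1 of 3 adipocyte markers. None of the 5 endothelial and 5 epithelial markers was measured. These shifts move with genotype, their part in the results below was not tested, and in bulk RNA fewer cells of a type and less RNA per cell cannot be told apart.

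With DMSO, the CPM of all 4 kinases and of Ppp1r15a were higher in the KO, and those of Eif2s1 and Ppp1r15b lower. CPM are relative values and do not give amounts of mRNA per cell. In this contrast 7 of the 8 genes passed edgeR's quasi-likelihood test at a Benjamini-Hochberg adjusted p under 0.05, 5 higher and 2 lower. Of all genes 89.4% passed, 45.1% higher and 44.3% lower, so the count is near the background. With doxycycline all 8 passed, 6 higher and 2 lower in the KO, against 89.9% of all genes, 45.1% higher and 44.8% lower. The WT and KO libraries did not overlap for 7 of the 8 genes with DMSO and for 8 with doxycycline, beside 89.8% and 89.7% of all genes. A fold of at least 1.5 was passed by 2 of the 8 with DMSO and 4 with doxycycline, where 48.4% and 49.5% of all genes did. The median absolute log2 fold change of the 8 was 0.44 with DMSO and 0.54 with doxycycline, beside 0.56 and 0.58 over all genes. Doxycycline changed 5 of the 8 in WT, 3 up and 2 down, where 53.1% of all genes passed, 23.9% up and 29.2% down. In KO it changed 3, 1 up and 2 down, where 21.7% passed, 11.6% up and 10.1% down. Doxycycline and DMSO libraries did not overlap for 5 of the 8 in WT and 4 in KO, beside 57.5% and 38.3% of all genes. The change with doxycycline differed between genotypes (the interaction) for 5 of the 8, 2 with a positive and 3 with a negative difference, against 32.5% of all genes, 18.2% positive and 14.3% negative. At a fold of at least 1.5 none of the 8 passed for doxycycline in WT, in KO or for the interaction, where 4.58%, 0.878% and 2.89% of all genes did. The comparisons share groups of libraries, so their values are not independent of each other. In the plot of levels by library, genotype parts most of the genes and doxycycline moves them little.

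**Figure D1:**
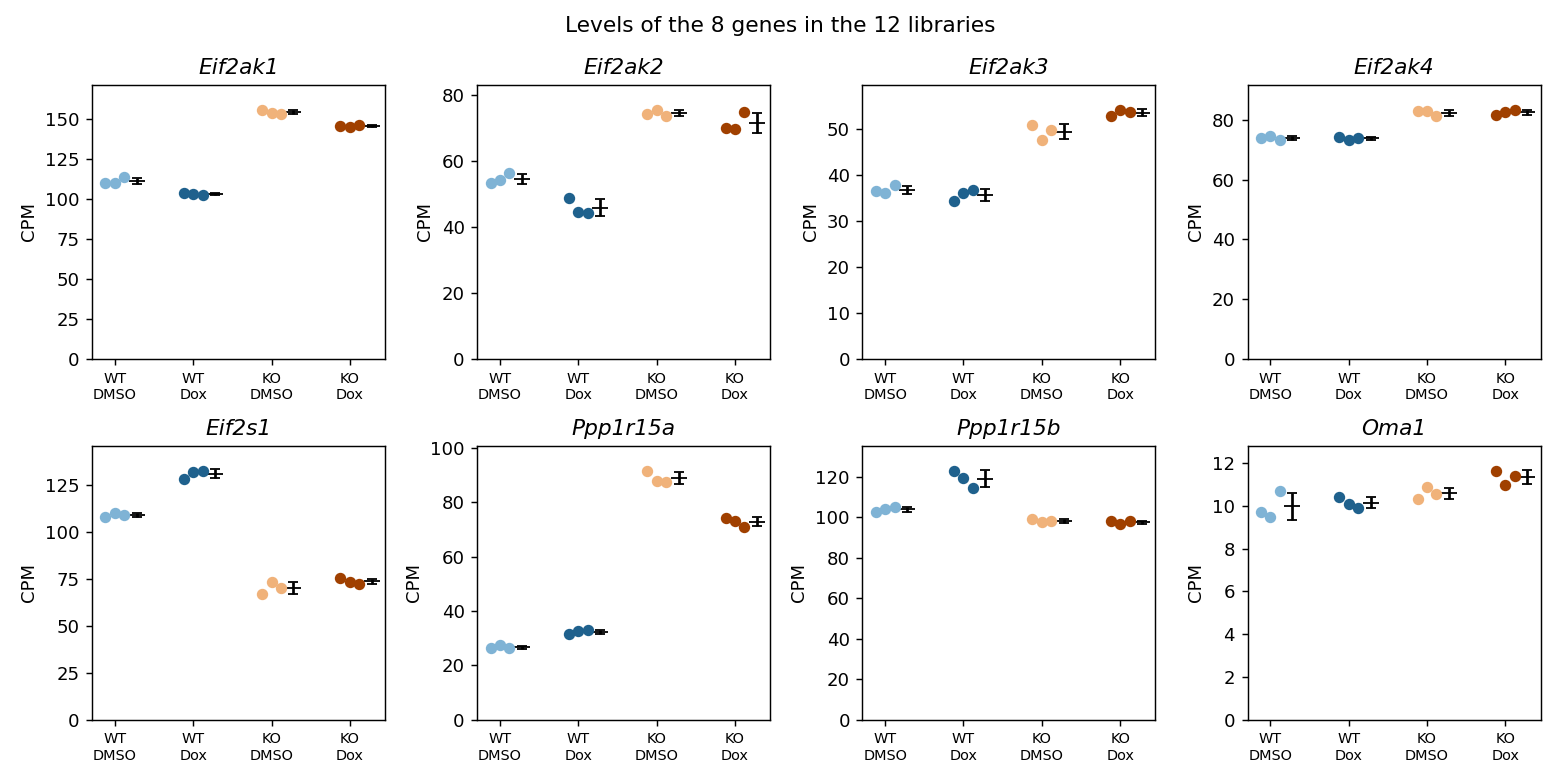
CPM (TMM-scaled, vertical axis) of each of the 8 genes in the 12 libraries, by group. Points are libraries and the bar beside them is the mean with its SD (n = 3). Ppp1r15a lies at 26.4 to 32.9 CPM in WT and 71.0 to 91.7 in KO, and Oma1 at 9.49 to 11.6 throughout.

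Eif2ak1 (HRI, chr5:143817788-143904251, plus strand, GRCm38) had 109.7, 110.0 and 113 CPM in WT DMSO and 155, 154 and 153 in KO DMSO. With doxycycline it had 103, 103 and 103 CPM in WT and 145, 145 and 146 in KO. The genotypes did not overlap, and within each genotype the doxycycline libraries lay below the DMSO libraries. The KO was 1.39-fold higher with DMSO, a log2 difference of 0.47 ± 0.0217 (SE, n = 3 a group) with an edgeR adjusted p of 3.0e-16, and 1.41-fold higher with doxycycline (0.50 ± 0.0218, adjusted p = 1.2e-16). It was a small step lower with doxycycline in both, at -0.11 ± 0.0223 in WT (edgeR adjusted p = 3.0e-04) and -0.08 ± 0.0212 in KO (adjusted p = 0.0061). An alternative added a term for a set of 4 libraries low in processed pseudogenes, WT DMSO 1 to 3 and KO DMSO 1. With it the WT step missed the threshold (-0.09, edgeR adjusted p = 0.11). In WT the set is every DMSO and no doxycycline library, so the term cannot be told apart from treatment there. Its size comes only from KO DMSO 1 against KO DMSO 2 and 3. Values with this term for doxycycline in WT, for the interaction and for KO against WT with DMSO thus carry the deviation of KO DMSO 1. For KO against WT with DMSO the term leaves KO DMSO 1 alone against the WT DMSO libraries. Without KO DMSO 1 and 2, which leaves 1 KO DMSO library, the KO step was -0.06. The 2 steps did not differ detectably, since the interaction was 0.02 with a 95% interval of -0.04 to 0.08. Exons of Eif2ak1 share 487 bases, 8.59% of their length, with the opposite-strand gene Aimp2, whose log2 difference with DMSO was -1.10, and 172 bases with Ankrd61. As the strand of counting is not given, reads of these overlaps cannot be told apart.

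Eif2ak2 (PKR, chr17:78852564-78882573, minus strand) is an interferon-stimulated gene, and its promoter is shown because it carries the core of the element bound by interferon-induced factors. The window runs from 250 bases before to 50 after the RefSeq start (GRCm38.p6, chr17:78882523-78882822, minus strand), with the match, which is GAAA, 2 bases of any kind and GAAA again, in capitals, 19 to 28 bases past the start.
Eif2ak2: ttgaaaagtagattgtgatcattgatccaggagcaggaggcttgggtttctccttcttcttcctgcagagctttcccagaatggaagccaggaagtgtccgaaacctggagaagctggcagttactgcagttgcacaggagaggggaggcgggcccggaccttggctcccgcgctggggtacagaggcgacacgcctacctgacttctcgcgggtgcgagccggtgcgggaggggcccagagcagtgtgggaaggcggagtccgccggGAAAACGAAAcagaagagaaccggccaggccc
Of 32851 such windows 3.44% hold this motif on either strand. Windows of 7 of the 8 genes were found, and those of Ppp1r15a and Eif2s1 hold it too.

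Eif2ak2 CPM were 53.2, 54.2 and 56.2 in WT DMSO and 74.1, 75.4 and 73.7 in KO DMSO. With doxycycline they were 48.8, 44.5 and 44.2 in WT and 69.8, 69.5 and 74.8 in KO. Every KO library lay above every WT library, the WT Dox libraries lay below WT DMSO, and the 2 KO groups overlapped. The log2 difference of KO from WT was 0.45 ± 0.0357 with DMSO (edgeR adjusted p = 2.9e-11) and 0.64 ± 0.0364 with doxycycline (adjusted p = 4.0e-14). Doxycycline lowered Eif2ak2 in WT (log2 change -0.25 ± 0.0377, edgeR adjusted p = 7.1e-06), while in KO the change was -0.06 ± 0.0344 (adjusted p = 0.24). The difference between these changes was 0.19 ± 0.0510 (edgeR interaction, adjusted p = 0.0057). Its exons share 174 bases with the opposite-strand transcript Gm26637.

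Other interferon-stimulated genes did not move as one with Eif2ak2. Of 20 listed 15 were measured, and in the KO with DMSO 7 were higher, 7 lower and 1 did not pass. Of all genes 45.1% were higher and 44.3% lower there, so this split is near the background. The median log2 difference of the 15 was -0.12 (0.03 without TMM) beside 0.02 over all genes. Irf7, a transcription factor of the interferon response, was higher by 2.30, whereas Ifit1, a binder of viral RNA, stood at -5.65 and the ubiquitin-like Isg15 at -3.13. With doxycycline 5 were higher in KO and 9 lower (median -0.31), beside 45.1% and 44.8% of all genes. Ddx58, the RNA sensor RIG-I, was higher by 0.98 and Oasl2 stood at -4.15. Of all genes, doxycycline raised 23.9% and lowered 29.2% in WT, and raised 11.6% and lowered 10.1% in KO. In WT, doxycycline raised 4 and lowered 3 of the 15, with Ddx58 at -0.35 and Ifit2 at -0.36, and with the term for the low-pseudogene libraries none passed as raised and 3 as lowered (median -0.03, against 0.06). In KO it raised none and lowered 6, among them the RNA sensor Ifih1 at -0.33, and none of the 15 passed in either direction without KO DMSO 1 and 2.

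Eif2ak3 (PERK, chr6:70844515-70905245, plus strand) had 36.6, 36.1 and 37.8 CPM in WT DMSO and 50.9, 47.7 and 49.9 in KO DMSO. With doxycycline it had 34.3, 36.2 and 36.8 CPM in WT and 52.9, 54.3 and 53.8 in KO. The WT groups overlapped, and all KO libraries lay above them, with KO Dox above KO DMSO. The KO was higher by 0.43 ± 0.0335 with DMSO (edgeR adjusted p = 1.5e-11) and 0.59 ± 0.0331 with doxycycline (adjusted p = 2.1e-14). The doxycycline change was -0.04 ± 0.0350 in WT (edgeR adjusted p = 0.31) and 0.12 ± 0.0317 in KO (adjusted p = 0.011). Their difference of 0.16 ± 0.0473 passed (edgeR adjusted p = 0.012). Without KO DMSO 2 it was 0.12 (edgeR adjusted p = 0.087) and the KO change 0.09 (adjusted p = 0.080). Without KO Dox 2 the difference was 0.14 (edgeR adjusted p = 0.059), and with the term for the low-pseudogene libraries 0.12 (adjusted p = 0.13). Exons of Eif2ak3 share 485 bases with the opposite-strand transcript Gm43292.

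Eif2ak4 (GCN2, chr2:118388618-118475234, plus strand) varied least among the kinases. Its CPM were 73.7, 74.4 and 73.3 in WT DMSO, 82.9, 82.8 and 81.2 in KO DMSO, 74.2, 73.2 and 74.0 in WT Dox, and 81.5, 82.6 and 83.3 in KO Dox. The genotypes did not overlap and, within each, the doxycycline and DMSO libraries did. The KO was 1.11-fold higher with DMSO (0.16 ± 0.0241, edgeR adjusted p = 1.9e-06) and 1.12-fold with doxycycline (0.16 ± 0.0240, adjusted p = 1.2e-06). Without TMM these differences were 0.30 and 0.29, or 0.14 and 0.15 relative to the median of all genes. With DMSO 84.3% of all genes differed more than that between genotypes. Doxycycline gave -0.00 in WT, with a 95% interval of -0.05 to 0.05, and 0.00 in KO (-0.04 to 0.05), so the libraries leave room for only a small change.

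Genes listed as acting on the kinases or working beside them moved both ways. All 15 were measured, among them Atf6 and Ern1, which are sensors beside PERK rather than regulators of the kinases. In the KO 8 were higher and 6 lower with DMSO (median 0.29), and 9 higher and 6 lower with doxycycline (median 0.19). Without TMM 9 were higher and 3 lower in either case, with medians of 0.43 and 0.32. With TMM, 45.1% of all genes were higher and 44.3% lower with DMSO, and 45.1% and 44.8% with doxycycline. Moving both ways is thus not particular to this list. Impact, which blocks the activation of GCN2, was higher by 0.94 with DMSO and 0.79 with doxycycline. Adar, which edits the double-stranded RNA that PKR senses, was higher by 1.54 with DMSO. The other sensors of the endoplasmic reticulum, Atf6 and Ern1 (IRE1), were higher by 1.12 and 1.14 with DMSO, and by 0.91 and 1.06 with doxycycline. Dnajc3, an inhibitor of PKR and PERK, was higher by 0.65 with doxycycline. Of all genes, doxycycline raised 23.9% and lowered 29.2% in WT, and raised 11.6% and lowered 10.1% in KO. In WT, doxycycline raised 6 of the 15 and lowered 2, with Adar at 0.26 and Prkra, an activator of PKR, at -0.15, while the PERK-binding chaperone Hspa5 stood at 0.00 and did not pass. With the term for the low-pseudogene libraries 3 passed as raised and 2 as lowered there. In KO it raised 6 and lowered 3, with Dnajc3 at 0.14 and Impact at -0.22. Without KO DMSO 1 and 2, 2 passed as higher and 1 as lower there.

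**Figure D2:**
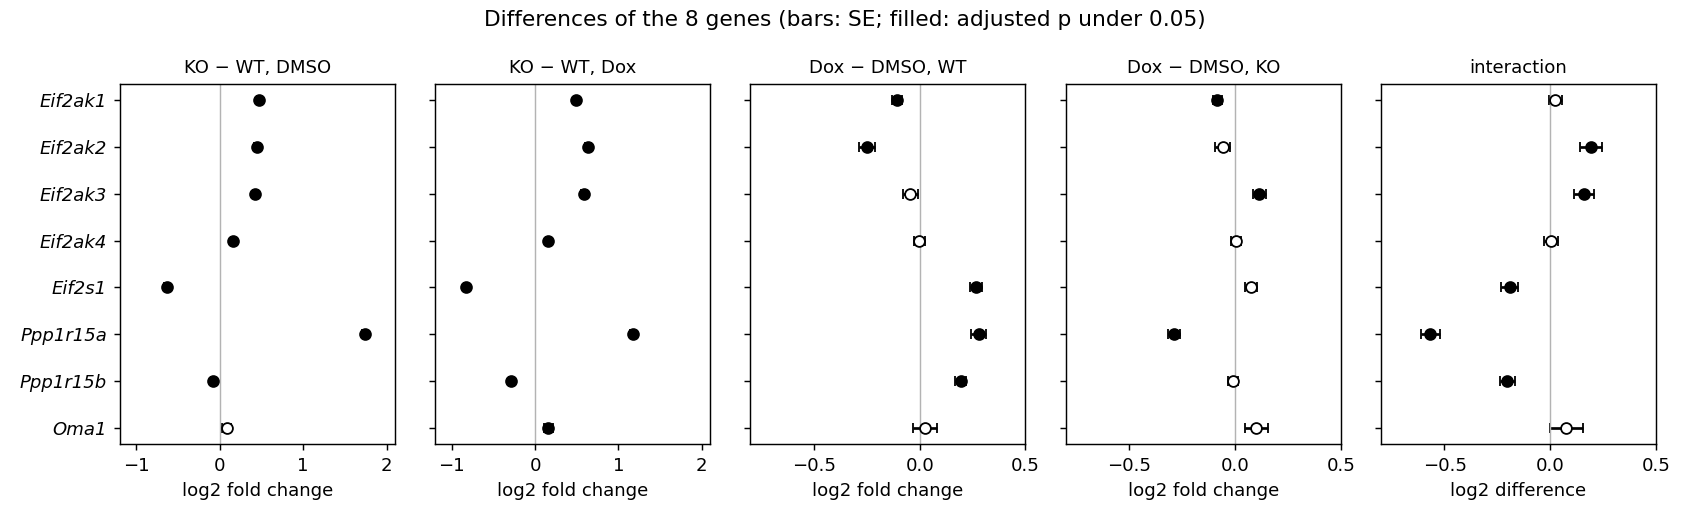
Log2 differences (horizontal axes) of the 8 genes in the 5 comparisons, with bars of 1 SE from edgeR. Filled points passed at an adjusted p under 0.05. Ppp1r15a is farthest to the right for KO against WT, at 1.74 with DMSO and 1.17 with doxycycline, and lies on opposite sides of 0 for doxycycline in WT and in KO.

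Eif2s1 (chr12:78861819-78887010, plus strand) encodes eIF2-alpha, the protein all 4 kinases phosphorylate, and moved against them. Its CPM were 108, 110.1 and 109 in WT DMSO and 66.8, 73.4 and 70.1 in KO DMSO. With doxycycline they were 128, 132 and 133 in WT and 75.4, 73.5 and 72.6 in KO. WT Dox lay above WT DMSO, both lay above all KO libraries, and the 2 KO groups overlapped. The KO was 1.56-fold lower with DMSO (-0.64 ± 0.0291, edgeR adjusted p = 2.5e-16) and 1.78-fold lower with doxycycline (-0.83 ± 0.0284, adjusted p = 6.8e-19). Doxycycline raised it 1.20-fold in WT (0.27 ± 0.0277, edgeR adjusted p = 2.6e-08), and the KO change was 0.08 ± 0.0298 (adjusted p = 0.075). With the term for the low-pseudogene libraries the WT rise was 0.17 (edgeR adjusted p = 0.014). That KO change passed without KO DMSO 2 (0.11, edgeR adjusted p = 0.016) and without WT Dox 1 (0.08, adjusted p = 0.033). The difference between the changes was -0.19 ± 0.0407 (edgeR adjusted p = 8.1e-04), and with the term for the low-pseudogene libraries it was -0.12 (adjusted p = 0.052). The annotation holds 5 processed pseudogenes of Eif2s1, 92.2 to 96.8% identical over 371 to 949 bases, so part of its reads could have been split or dropped and its level is uncertain.

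The other subunits of eIF2 and those of its exchange factor eIF2B were listed with Eif2a and Eif2d, initiation factors that are subunits of neither. With TMM scaling the listed genes were also mostly lower in the KO, and with DMSO they were evenly spread without it. Eif2a and Eif2d count among the lower genes below, with Eif2d at -0.36 with DMSO and -0.31 with doxycycline. Of 10 listed 9 were measured, and 8 were lower and 1 higher with DMSO (median -0.13) and again with doxycycline (median -0.21). Of all genes 44.3% were lower and 45.1% higher with DMSO, and 44.8% and 45.1% with doxycycline. Eif2s2, the beta subunit of eIF2, stood at -0.28 and -0.64, and Eif2b3, the gamma subunit of eIF2B, at -0.50 and -0.81. The small differences depended on scaling: without TMM the counts were 2 higher and 3 lower with DMSO, with the median at 0.02, and 1 higher and 5 lower with doxycycline. In WT, doxycycline raised 4 of the 9 and lowered none, led by Eif2s2 (0.43 ± 0.0247) and Eif2b3 (0.42 ± 0.0491), and with the term for the low-pseudogene libraries 2 passed as raised. In KO none of the 9 passed, and Eif2s2 stood at 0.07 ± 0.0250 (edgeR adjusted p = 0.055). Of all genes, doxycycline raised 23.9% and lowered 29.2% in WT, and raised 11.6% and lowered 10.1% in KO. The interaction was negative for 3 of the 9, beside 14.3% of all genes, with Eif2s2 at -0.36 and Eif2b3 at -0.31. With the term for the low-pseudogene libraries 1 of the 9 was negative.

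Ppp1r15a (GADD34, chr7:45522916-45526268, minus strand) had the largest genotype difference of the 8 genes. Its promoter window (RefSeq, GRCm38.p6, chr7:45526219-45526518, minus strand) is shown because it holds a full cyclic AMP response element, TGACGTCA, a letter pattern bound by CREB, whose coactivators are CBP and p300, and by ATF family proteins. The element is in capitals, 12 to 5 bases before the start.
Ppp1r15a: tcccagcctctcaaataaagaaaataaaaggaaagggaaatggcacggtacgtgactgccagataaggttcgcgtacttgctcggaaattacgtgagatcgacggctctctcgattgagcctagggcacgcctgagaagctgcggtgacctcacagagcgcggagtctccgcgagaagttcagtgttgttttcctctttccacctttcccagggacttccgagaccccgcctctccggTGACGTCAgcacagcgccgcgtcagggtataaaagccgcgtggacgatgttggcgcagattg
Of the 32851 windows 1.79% hold this element, and none of the windows of the other genes found does. No window found holds TGATGNAA, an element of ATF4 and C/EBP present in 3.97% of windows, or the endoplasmic reticulum stress element, which is CCAAT, 9 bases of any kind and CCACG, present in 0.119%. All motifs were searched on both strands. CCAAT, present in 37.4% of windows and part of the stress element, has 6 matches in the Eif2ak3 window and 1 in that of Eif2ak1. These are matches of letters, and no binding was measured.

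Ppp1r15a CPM were 26.4, 27.4 and 26.4 in WT DMSO and 91.7, 88.0 and 87.5 in KO DMSO. With doxycycline they were 31.5, 32.7 and 32.9 in WT and 74.4, 73.3 and 71.0 in KO. None of the 4 groups overlapped another, and doxycycline libraries were the higher ones in WT and the lower ones in KO. The KO was 3.34-fold higher with DMSO (1.74 ± 0.0317, edgeR adjusted p = 1.5e-24), and 12.3% of all genes differed more. With doxycycline it was 2.25-fold higher (1.17 ± 0.0311, edgeR adjusted p = 3.6e-21). Doxycycline raised it 1.21-fold in WT (0.28 ± 0.0356, edgeR adjusted p = 6.4e-07) and lowered it 1.22-fold in KO (-0.29 ± 0.0277, adjusted p = 3.6e-08). The difference between the changes was -0.57 ± 0.0451 (edgeR adjusted p = 9.3e-10), and 5.01% of all genes had a larger one. Leaving out any 1 library kept it between -0.60 and -0.56.

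Ppp1r15b (CReP, chr1:133131143-133139783, plus strand) differed little between the KO groups. Its CPM were 103, 104 and 105 in WT DMSO and 99.0, 97.4 and 98.1 in KO DMSO. With doxycycline they were 123, 119 and 115 in WT and 98.1, 96.6 and 97.9 in KO. WT Dox was highest, WT DMSO lay just above both KO groups, and the KO groups overlapped. With DMSO the KO was lower by a small step, -0.08 ± 0.0256 (edgeR adjusted p = 0.0044), which turned to 0.065 without TMM (adjusted p = 0.020). With the term for the low-pseudogene libraries it was -0.07 and missed the threshold, but that value sets KO DMSO 1 alone against WT DMSO. The TMM-free fit moved the median of all genes to 0.17, and relative to that median Ppp1r15b stood at -0.10. With doxycycline the KO was 1.22-fold lower (-0.29 ± 0.0253, edgeR adjusted p = 1.4e-10), or -0.15 without TMM. Doxycycline raised it in WT by 0.19 ± 0.0253 (edgeR adjusted p = 8.7e-07) but gave -0.01 ± 0.0256 in KO (adjusted p = 0.83, 95% interval -0.06 to 0.04), a difference of -0.20 ± 0.0360 (adjusted p = 1.2e-04). Its exons share 640 bases, 11.4%, with the opposite-strand transcript Gm26616.

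Genes listed as partners of the PPP1R15 proteins were, with TMM scaling, lower in the KO more often than higher, though not without it under DMSO. Of 7 genes for protein phosphatase 1, its regulators and actin, which joins the complex as a cofactor, 6 were measured. Ppp1r2, an inhibitor of protein phosphatase 1, counts among the lower genes below, at -0.08 with DMSO. With DMSO 5 were lower in the KO and 1 did not pass (median -0.16), where 44.3% of all genes were lower and 45.1% higher. Cytoplasmic actins led, with Actb at -1.04 and Actg1 at -1.08, followed by the catalytic subunit Ppp1cc at -0.24, while the catalytic subunit Ppp1ca stood at 0.00 (edgeR adjusted p = 0.88). Without TMM 3 were higher and 3 lower. With doxycycline 1 was higher and 4 lower, beside 45.1% and 44.8% of all genes, with Ppp1ca at 0.19 and Actb at -0.67. With doxycycline Actb and Actg1 fell in WT, at -0.15 and -0.10, and rose in KO, at 0.22 and 0.43. With the term for the low-pseudogene libraries the WT change of Actg1 missed the threshold (-0.06, edgeR adjusted p = 0.33). Over the 6 genes doxycycline raised 1 and lowered 3 in WT and raised 3 and lowered none in KO. Of all genes it raised 23.9% and lowered 29.2% in WT, and raised 11.6% and lowered 10.1% in KO. With that term 1 of the 6 passed as raised and 1 as lowered in WT. Actin genes are also abundant genes of the fibroblast cytoskeleton. The fibroblast marker sum above was lower in the KO as well, whereas in WT it rose with doxycycline while Actb and Actg1 fell. A link between the actins and this sum was not tested.

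Oma1 (chr4:103313812-103371868, plus strand) was the lowest of the 8 genes, also per kilobase of exon, and varied little. Its CPM were 9.73, 9.49 and 10.7 in WT DMSO, 10.3, 10.9 and 10.6 in KO DMSO, 10.4, 10.1 and 9.91 in WT Dox, and 11.6, 11.0 and 11.4 in KO Dox. The WT and KO DMSO groups overlapped, and the KO Dox libraries lay above all others. With DMSO the difference of KO from WT was 0.08 ± 0.0556 (edgeR adjusted p = 0.15), with a 95% interval of -0.02 to 0.19, and it passed without WT DMSO 3 (0.14, adjusted p = 0.033) and without TMM (0.23, adjusted p = 4.4e-04). With doxycycline the KO was higher by 0.16 ± 0.0543 (edgeR adjusted p = 0.0084), a call lost without KO Dox 1 (0.12, adjusted p = 0.073), and by 0.29 without TMM. Doxycycline changed it by 0.03 ± 0.0562 in WT (edgeR adjusted p = 0.73) and 0.10 ± 0.0537 in KO (adjusted p = 0.19). The 95% interval of the KO change ran from -0.0044 to 0.21, and that of the WT change from -0.08 to 0.14. The 2 KO groups did not overlap in their libraries although the test did not pass.

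Around OMA1, genes of mitochondrial proteases, prohibitins and chaperones were raised by doxycycline in WT. Of all genes, doxycycline raised 23.9% and lowered 29.2% in WT, and raised 11.6% and lowered 10.1% in KO. All 15 listed were measured. In WT 11 rose, 1 fell and 3 did not pass (median 0.10), with the matrix protease Lonp1 at 0.66 ± 0.0204 and the chaperones Hspa9 and Hspd1 at 0.53 and 0.26, and the protease subunit Spg7 fell by 0.28. Of these rises 4 passed with the term for the low-pseudogene libraries. In KO 2 rose, Hspd1 by 0.11 and the prohibitin Phb by 0.07, and 13 did not pass. The interaction was negative for 5 and positive for 1 of the 15, beside 14.3% and 18.2% of all genes. Lonp1 stood at -0.69, Hspa9 at -0.51 and Spg7 at 0.30. Between genotypes with DMSO 6 were higher and 9 lower in the KO (median -0.12), beside 45.1% and 44.3% of all genes. The protease Yme1l1 stood at 0.62 and Hspd1 at -1.13. Without TMM 7 of the 15 were higher and 7 lower, and the median was 0.03. With doxycycline 5 were higher and 10 lower (median -0.40), beside 45.1% and 44.8% of all genes. Dele1, the messenger from OMA1 to HRI, had 50.2 ± 0.333 CPM (SD, n = 3) in WT DMSO, 62.3 ± 1.73 in KO DMSO, 53.1 ± 1.63 in WT Dox and 62.3 ± 0.414 in KO Dox. It was higher in the KO by 0.31 with DMSO and 0.23 with doxycycline, and doxycycline gave 0.08 in WT (edgeR adjusted p = 0.025) and 0.00 in KO. With the term for the low-pseudogene libraries the WT value was 0.10 (edgeR adjusted p = 0.19).

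Downstream, ATF4 and its target genes rose with doxycycline, more in WT than in KO. Atf4 itself had 346 ± 6.81 CPM (SD, n = 3) in WT DMSO and 242 ± 5.83 in KO DMSO. With doxycycline it had 635 ± 10.3 CPM in WT and 263 ± 3.66 in KO. It rose by 0.88 ± 0.0225 in WT and by 0.12 ± 0.0231 in KO, a difference of -0.76 ± 0.0322 (edgeR adjusted p = 8.8e-15), and the KO rise missed the threshold without KO DMSO 1 and 2 (0.09, adjusted p = 0.080). Of all genes, doxycycline raised 23.9% and lowered 29.2% in WT, and raised 11.6% and lowered 10.1% in KO. Of 36 listed genes 33 were measured. Doxycycline raised 31 and lowered 1 in WT (median 0.88), and raised 25 and lowered none in KO (median 0.19), or 19 without KO DMSO 1 and 2. The interaction was negative for 32 of the 33, beside 14.3% of all genes, and the other, Cebpb, did not pass. In the KO with DMSO 28 were lower and 5 higher (median -0.94), and with doxycycline 31 were lower and 2 higher (median -1.65). Of all genes 44.3% were lower and 45.1% higher with DMSO, and 44.8% and 45.1% with doxycycline.

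Among them, Trib3, a pseudokinase induced by ATF4, rose from 12.5 to 101 CPM in WT and from 6.90 to 8.89 in KO. Its changes were 3.01 ± 0.0436 and 0.37 ± 0.0675 on the log2 scale. Ddit3 (CHOP), a stress transcription factor, rose from 21.3 to 42.1 CPM in WT and from 47.4 to 56.5 in KO, and was higher in the KO with either treatment, by 1.15 and 0.42. Atf3, another stress factor, was higher in the KO by 4.84 with DMSO, from 4.58 to 132 CPM, and doxycycline did not pass for it in WT (0.18, edgeR adjusted p = 0.059). Cth, an enzyme of cysteine synthesis, rose by 1.71 in WT and stood at -3.70 in the KO against WT with doxycycline. Ppp1r15a and Atf3 were thus both higher in the KO while most ATF4 targets were lower. The plot of doxycycline changes sets the inputs against these targets.

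**Figure D3:**
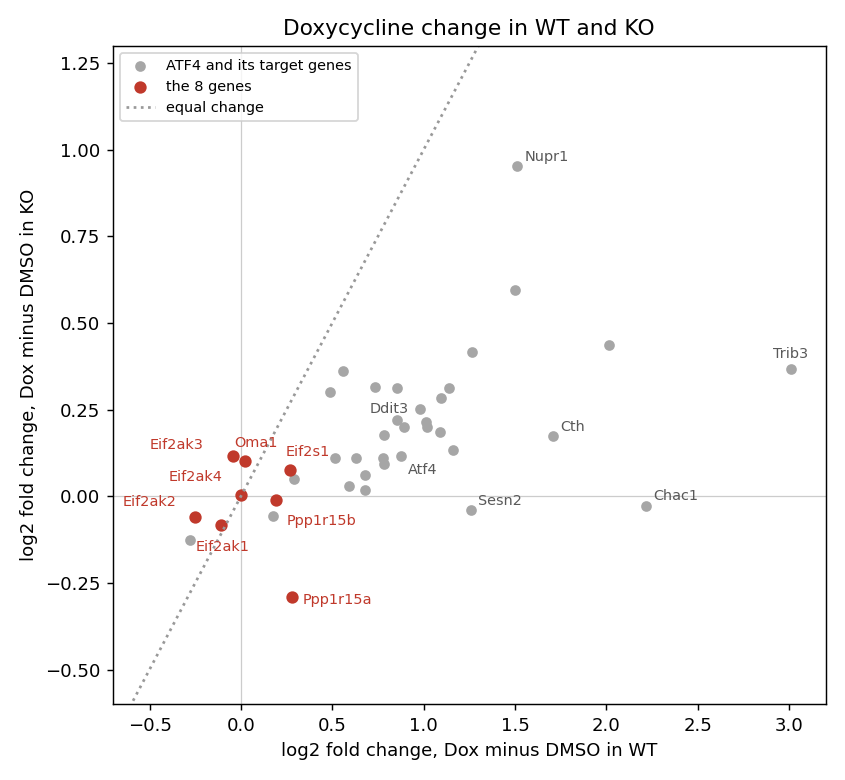
Log2 fold change with doxycycline in WT (horizontal axis) and in KO (vertical axis), with the 8 genes in red and ATF4 with its targets in grey. The dotted line marks equal change. The 8 genes lie within -0.25 to 0.28 in WT and -0.29 to 0.12 in KO, while Trib3 reaches 3.01 in WT.

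Levels of different genes were set side by side per kilobase of exon. In WT DMSO the order of mean CPM per kilobase was Eif2s1 at 22.0, Eif2ak1 at 19.6, Ppp1r15b at 18.6, Eif2ak2 at 10.7, Eif2ak4 at 9.90, Ppp1r15a at 9.09, Eif2ak3 at 6.12 and Oma1 at 4.65. No neighbours in this order overlapped in their libraries. In KO DMSO, Ppp1r15a was first at 30.3, then Eif2ak1 at 27.2, Ppp1r15b at 17.5, Eif2ak2 at 14.5, Eif2s1 at 14.2, Eif2ak4 at 11.0, Eif2ak3 at 8.22 and Oma1 at 4.93. Here Eif2ak2 and Eif2s1 overlapped. Ppp1r15a thus ranked 6 in WT DMSO and 1 in KO DMSO, and Eif2s1 ranked 1 and 5. In WT Dox the order was Eif2s1 at 26.5, Ppp1r15b at 21.3, Eif2ak1 at 18.2, Ppp1r15a at 11.0, Eif2ak4 at 9.89, Eif2ak2 at 8.97, Eif2ak3 at 5.93 and Oma1 at 4.73. In KO Dox it was Eif2ak1 at 25.6, Ppp1r15a at 24.8, Ppp1r15b at 17.4, Eif2s1 at 14.9, Eif2ak2 at 14.0, Eif2ak4 at 11.1, Eif2ak3 at 8.91 and Oma1 at 5.29. With doxycycline no neighbours overlapped in either genotype. Per kilobase, HRI was the highest of the 4 kinase messages and PERK the lowest in every group.

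**Figure D4:**
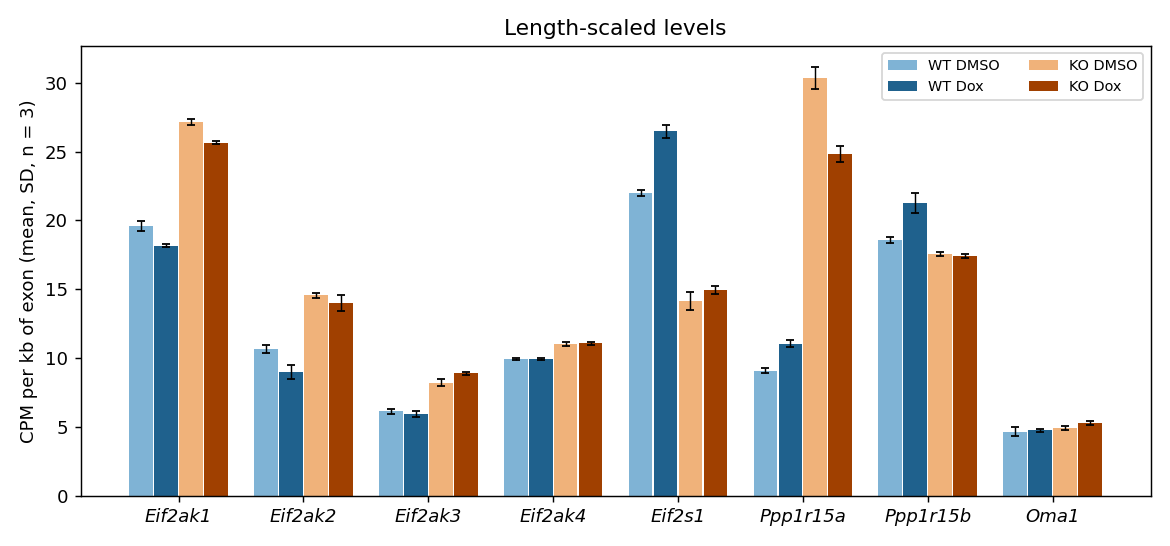
Mean CPM per kilobase of exon (vertical axis, bars from 0) of the 8 genes in the 4 groups, with SD (n = 3). Eif2s1 is highest in WT DMSO at 22.0 and in WT Dox at 26.5, and Ppp1r15a is highest in KO DMSO at 30.3.

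Over the 12 libraries the 4 kinases varied together, with Pearson correlations of log2 CPM from 0.914 to 0.977 over their 6 pairs, and each ran against Eif2s1, at -0.991 to -0.948. These values describe libraries that share a split by genotype. Of 9229 other genes compared, between 1234 and 2597 had a correlation above 0.95 with each kinase, 1905 with Eif2s1 and 2243 with Ppp1r15a. Ppp1r15b had 77 and Oma1 none. The gene most like each was Timm29 for Eif2ak1 (r = 0.999), Ehd3 for Eif2ak2 (0.996), Cetn2 for Eif2ak3 (0.993), Kif13b for Eif2ak4 (0.995), Hspe1 for Eif2s1 (0.998), Igsf9b for Ppp1r15a (0.998), Rassf8 for Ppp1r15b (0.991) and Tmx1 for Oma1 (0.908). Log2 differences of Igsf9b were 1.93 for KO against WT with DMSO, 0.29 for doxycycline in WT and -0.30 in KO. The libraries measured mRNA, and neither the phosphorylation of eIF2-alpha nor any protein level.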

How the data were processed

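The authors deposited raw read counts per gene for 12 libraries. Per the submitters' processing notes STAR 2.6.0a, HTSeq 0.10.0 and GRCm38.p6 were used, and neither their roles nor the strand of counting are given in the sources. The 4 sums of unassigned reads were left out. Tests were edgeR's quasi-likelihood F tests (edgeR 4.0.16 in R 4.3.3) on a model of the 4 groups over all 12 libraries, scaled by TMM and adjusted over 12637 genes (Benjamini-Hochberg). Its low-count filter removed no gene. The SE is the log2 difference divided by the square root of F. The common biological coefficient of variation was 2.26%. The fit was tested on simulated data. Replicate pairs differed by more than sampling noise (chi-square per gene 1.33 to 8.11), so none was merged. WT Dox 1 stood apart from WT Dox 2 and 3, at 8.11 and 6.31 beside 1.465 between those. KO DMSO 1 stood apart from KO DMSO 2 and 3, at 3.67 and 3.76 beside 1.33 between those. The 8 genes and the lists were chosen with earlier results of these data known. In each list and comparison, up to 4 passing genes with the smallest p and up to 2 others with the highest level may be named, and Atf4, Ddit3, Trib3 and Dele1 throughout. For each of the 8 genes the 3 with the highest correlation were found. Positions came from a GRCm38 annotation and promoter windows from RefSeq. Alternatives used other scalings, filters, DESeq2 1.42.0, limma 3.58.1 voom, a replicate block, fits of the compared groups alone, a term for the libraries low in processed pseudogenes, a minimum fold of 1.5, and fewer libraries.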

Additional observations from a re-analysis of the deposited data

Results flagged for a closer look

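For 5 of the 8 genes the change with doxycycline differed between KO and WT, by edgeR's test of the interaction, where 32.5% of all genes passed. The log2 difference, KO change minus WT change, was 0.192 for Eif2ak2, which fell in WT. For Eif2ak3 it was 0.159, with a rise in KO. For Eif2s1 it was -0.192, with a rise in WT. For Ppp1r15a it was -0.568, with a rise in WT and a fall in KO. For Ppp1r15b it was -0.203, with a rise in WT. The values for Eif2ak3 and Eif2s1 missed the threshold in some alternatives. The cause of these differences was not tested.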

How the results depend on the processing

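Under 23 alternatives there were 912 values of the 8 genes in 5 comparisons. Of these 896 stayed on their side of the threshold, 11 no longer passed, 4 newly passed and 1 reversed. Not all could differ: the fit without a filter repeated the main fit, as the filter removed no gene. Leaving out a library of neither compared group could move a contrast only through the scaling and the shared spread. The reversed value was Ppp1r15b for KO against WT with DMSO (0.065 without TMM). A change of sign was counted as reversed only where either fit passed. Values that passed in neither could change sign, as Oma1 did for doxycycline in WT (-0.028 to 0.079). A minimum fold of 1.5 left 2, 4, 0, 0 and 0 of the 8 genes for the genotype contrast under DMSO, then under doxycycline, the doxycycline contrast in WT, then in KO, and the interaction, and 6115, 6249, 579, 111 and 365 of all genes. With the term for the low-pseudogene libraries 2850 genes passed for doxycycline in WT, and 3 of the 8 for the interaction. In WT that set is the DMSO group itself, so the term is not a separate check of doxycycline there. Under DMSO the genotype contrast with this term sets KO DMSO 1 alone against the WT libraries. Without KO DMSO 1 and 2, an alternative chosen after seeing the data, 1089 genes and 1 of the 8 passed for doxycycline in KO, where KO DMSO then has 1 library, assumed to vary like the others. Leaving out 1 library gave, in the same order, 11080 to 11398, 11159 to 11395, 5886 to 6926, 1896 to 3469 and 3474 to 4563 genes, and 7 to 8, 7 to 8, 5 to 5, 3 to 4 and 4 to 5 of the 8. Replicate numbers did not pair the libraries, as same-numbered deviations correlated at -0.351 to 0.238, and a replicate block gave 11296, 11355, 6664, 2679 and 4050 genes and changed no call of the 8. The fit of only the groups compared was not run for the interaction, which uses all 4. Other causes of these shifts were not tested.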
